A study of Arabidopsis thaliana with 12 samples.

Results

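The transcript response of gun1-101 seedlings of Arabidopsis thaliana to lincomycin was read as the difference between 3 arrays of gun1-101 seedlings grown on lincomycin and 3 arrays of gun1-101 control seedlings. These are 6 of the 12 arrays of the study, and the other 6 hold the wild-type accession Col-0 in the same pair of conditions. Every one of the 16550 genes that a probe set named alone entered the comparison, of which 1805 had a symbol. The other 14745 were known by locus tag. All seedlings were whole, 7 days old and grown on plates, with 0.5 mM lincomycin in the medium or with none. Every group had a cold treatment of 2 days, 8 h of light, 5 days of darkness and then 2 days of continuous light. The groups used here are thus gun1-101 control, gun1-101 with lincomycin, Col-0 control and Col-0 with lincomycin, with 3 arrays each. The labels do not describe the gun1-101 allele, and GUN1 itself was not analysed here, so the genotype labels were not checked by its level.

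Lincomycin blocks the ribosomes of plastids and leaves those of the cytosol working. When plastid gene expression fails early in chloroplast formation, the nucleus lowers many genes for photosynthesis, a case of plastid-to-nucleus (retrograde) signalling. GUN1 is a pentatricopeptide repeat protein of the chloroplast, and gun mutants (genomes uncoupled) are known for keeping such nuclear genes active when plastids are damaged. Which transcripts still respond to lincomycin in the mutant is the question the comparison addresses.

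Plastid transcripts were high in every array: rbcL, the plastid gene of the large Rubisco subunit, lay between 11.7 and 12.5 log2 units and psbA, of the photosystem II reaction centre, between 11.7 and 12.1. PYK10, a beta-glucosidase abundant in seedling roots, lay between 12.1 and 12.4. Array medians lay between 6.59 and 6.70, and no arrays held identical values. The 6 gun1-101 arrays had mean correlations of 0.9888 to 0.9914 with the other arrays of their group. Among the Col-0 arrays, control replicate 1 (0.979) and lincomycin replicate 3 (0.9855) stood apart, with the lowest mean correlation of their groups. Control replicates 2 and 3 had 0.9845 and 0.9851, and correlated best with each other (0.9911). Col-0 control replicate 1 correlated best with an array of the other genotype, gun1-101 control replicate 1 (0.9915), and why was not tested. Both arrays that stood apart enter the gun1-101 difference through the shared estimate of spread alone. Without both of them 5141 genes were called in place of the 3384 given below. The median of the 7083 probe sets that precede the first probe set with a listed gene also differed between the gun1-101 groups. It was 5.10, 5.02 and 4.88 in the gun1-101 controls and 4.71, 4.54 and 4.81 with lincomycin, with no overlap. Its part in the results was not tested beyond a fit that holds it as a covariate, which called 2814 genes.

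Lincomycin changed the level of 3384 genes in gun1-101, or 20.4% of those tested. A gene was called when its adjusted p was under 0.05 in limma's moderated test over all 12 arrays, with Benjamini-Hochberg adjustment over the 16550 genes; all adjusted p-values below are from this fit. In 1810 genes (10.9%) the level rose, with a median log2 difference of 0.80, and in 1574 genes (9.51%) it fell, with a median of -0.72. Most changes were small. At least 2-fold changes were called in 566 genes upward (3.42%) and 379 downward (2.29%), at least 4-fold in 37 and 35, at least 8-fold in 4 and 7, and at least 16-fold in 0 and 3. Tested against a 2-fold change, 30 genes were called, 8 higher and 22 lower. In Col-0 the same fit called 2374 genes (14.3%), 1184 higher (7.15%) and 1190 lower (7.19%). The precision is limited by 3 arrays a group: without 1 of the gun1-101 arrays, between 1964 and 2357 genes were called, and 56.7% to 66.1% of the 3384 were among them. In bulk seedlings, fewer cells of a type and less RNA per cell cannot be told apart.

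Calls depended on the level of the gene. With the genes split by mean level into 4 groups of like size, 1.11% of the dimmest group were higher and 4.2% lower, against 15.4% and 11.3% of the brightest. The 5 nuclear chromosomes were alike, with 10.3% to 11.7% of genes higher and 8.39% to 9.71% lower on each. The plastid genome was not: 0 of its 63 measured genes were higher and 59 (93.7%) were lower.

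The deepest falls in gun1-101 were of genes that also fell in Col-0. AT1G13609, named by locus tag only, measured 8.79, 9.28 and 9.11 log2 units in the gun1-101 controls and 4.69, 3.60 and 3.23 with lincomycin. The groups lay far apart, a fall of 5.22 on the log2 scale (SE 0.40, 37.3-fold, adjusted p = 2.88e-05), and Col-0 fell by 6.06. AT2G14247 measured 8.30, 8.71 and 9.04 without and 4.19, 4.05 and 3.73 with lincomycin, a fall of 4.70 (SE 0.31, adjusted p = 1.34e-05). CSLA01, a cellulose synthase-like gene of the A class, which holds synthases of mannan in the cell wall, measured 8.28, 8.30 and 7.95 without and 3.53, 3.16 and 3.77 with lincomycin. That was a fall of 4.69 (SE 0.27, 25.8-fold, adjusted p = 7.93e-06), and Col-0 fell by 4.17. AT5G33370 had the lowest adjusted p of all genes in gun1-101 (2.9e-06): it measured 7.12, 7.12 and 7.58 without and 3.65, 3.65 and 3.44 with lincomycin. With lincomycin most of these arrays lay below 4.14, where the dimmest of 4 groups of genes by mean level ended. The size of such falls may be understated, and although none of the 4 was called in the test of a difference between genotypes (adjusted p between 0.234 and 0.9), a difference could be hidden near the bottom of the scale.

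**Figure D1:**
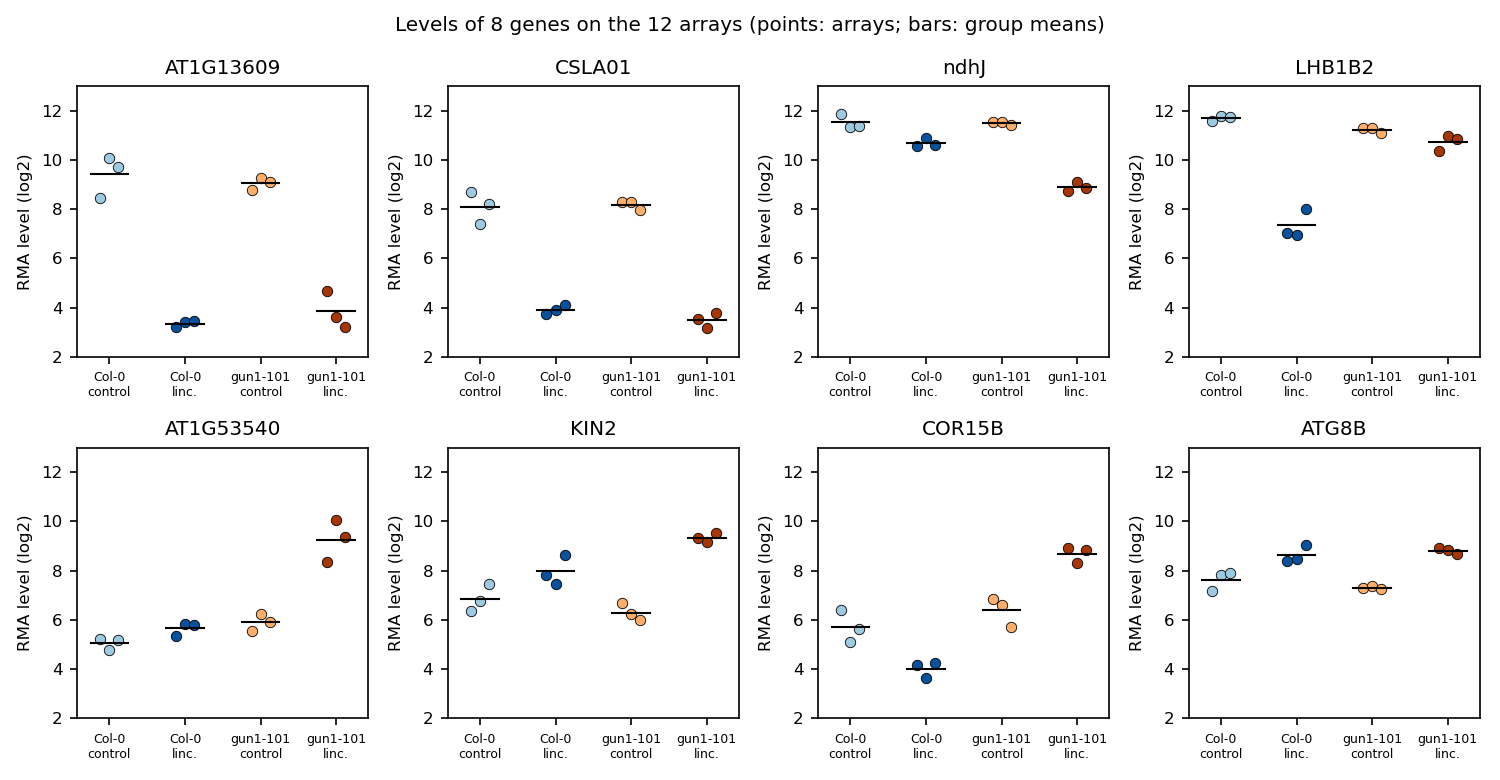
RMA level in log2 units of 8 genes on each of the 12 arrays, by genotype and treatment; points are arrays and bars are group means. AT1G13609 and CSLA01 dropped in both genotypes, LHB1B2 dropped in Col-0 while the gun1-101 arrays with lincomycin stayed at 10.37 or above, and COR15B moved in opposite directions.

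Genes of the response to iron deficiency fell in gun1-101. When iron is short, plants raise a set of genes for iron uptake and signalling under transcription factors of the basic helix-loop-helix family. Of 28 loci listed for this response, 8 were measured and 6 fell, 0 rose, against 9.51% of all genes lower. The list's median was -1.63 in gun1-101 and -2.13 in Col-0. Besides AT1G13609, AT1G47395 measured 9.17, 9.41 and 9.64 without and 6.67, 5.37 and 5.97 with lincomycin (a fall of 3.41, SE 0.41, adjusted p = 0.000419). Its neighbour AT1G47400 measured 7.62, 7.80 and 7.83 without and 4.52, 4.29 and 4.44 with lincomycin (a fall of 3.33, SE 0.41, adjusted p = 0.000473). These pairs of groups did not overlap. BHLH101, a transcription factor of the iron response, went from 5.60, 6.56 and 6.35 to 4.57, 4.36 and 4.21, a fall of 1.79 (SE 0.35, adjusted p = 0.0053). AT3G12900 fell by 1.48 and AT1G74770 by 1.41. The regulators PYE (log2 difference -0.36, adjusted p = 0.106) and ILR3 (0.09, adjusted p = 0.593) were not called. In limma's test of the difference between genotypes 0 of the 8 were called, where 6.97% of all genes were, and 0 had an unadjusted p under 0.05. The lower count was 6 or 7 under all 17 alternative settings.

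Deep falls of other genes with a symbol included TBL26, JMT and GH3.9. TBL26, of the TRICHOME BIREFRINGENCE-LIKE family of wall polysaccharide acetylation, measured 8.19, 7.75 and 7.54 without and 5.15, 4.94 and 5.40 with lincomycin. It fell by 2.66 (SE 0.24, 6.31-fold, adjusted p = 7.42e-05). JMT, the jasmonic acid carboxyl methyltransferase that makes methyl jasmonate, went from 6.07, 5.80 and 6.77 to 3.94, 4.00 and 4.10, a fall of 2.20 (SE 0.22, adjusted p = 0.000145). Col-0 fell by 3.03 and 2.55 in these genes, and no difference between genotypes was called (adjusted p = 0.504 and 0.498). GH3.9, a putative indole-3-acetic acid-amido synthetase, measured 7.35, 7.32 and 7.15 without and 5.07, 5.28 and 5.76 with lincomycin. It fell by 1.90 in gun1-101 (SE 0.22) and by 3.44 in Col-0, a difference that was called (1.54, SE 0.31, adjusted p = 0.0154). The locus-tag genes AT5G05250 (-3.15), AT5G01015 (-2.95), AT1G06100 (-2.95), AT5G59330 (-2.84) and AT2G27402 (-2.72) completed the deep falls that Col-0 showed at a like size, between -2.63 and -3.69.

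Some families of the cell wall and of microtubules had members that fell, beside 9.51% of all genes. Of 9 CSL genes measured 4 fell and 0 rose; apart from CSLA01 the largest was CSLC5 (-0.67). Without 5 of the 6 gun1-101 arrays, each left out alone, 2 CSL genes were called. In the TBL family 7 of 23 genes fell and 1 rose, TBL37 (1.02). Expansins and XTH genes loosen and remodel the wall. Of 32 measured, 5 fell and 0 rose, a share near that of all genes. EXPB1 measured 7.78, 7.87 and 7.78 without and 6.12, 6.15 and 5.98 with lincomycin (-1.73, SE 0.17, adjusted p = 0.000103). XTH26 (-1.39) and EXPA15 (-1.29) followed. Without gun1-101 lincomycin replicate 1, 2 of these genes were called, and 3 without control replicate 2, control replicate 3 or lincomycin replicate 3. TUB1, a beta-tubulin of microtubules, measured 9.21, 9.18 and 9.27 without and 7.79, 7.89 and 7.77 with lincomycin, a fall of 1.40 (SE 0.11, adjusted p = 4.19e-05). Its log2 difference in Col-0 was -0.21, and the difference between genotypes was called (-1.19, SE 0.16, adjusted p = 0.00187). TUB1 does not stand for its list of 10 beta-tubulin and histone genes. Of these 3 fell in gun1-101 and 4 in Col-0, with medians of -0.006 and -0.61.

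The IQD family encodes proteins with calmodulin-binding IQ motifs, several of which bind microtubules. Of 17 measured, 10 fell and 0 rose, where 9.51% of all genes fell. The family's median was -0.48, beside -0.06 over all genes. The largest falls were of iqd21 (-1.35, SE 0.15, adjusted p = 0.000259) and IQD24 (-1.15, SE 0.17, adjusted p = 0.000958). IQD24 measured 7.40, 7.28 and 7.24 without and 6.20, 6.25 and 6.01 with lincomycin. In Col-0 the family's median was -0.01, and the difference between genotypes was called for IQD19 alone (-1.15, adjusted p = 0.0463), a call lost under 10 of 23 alternatives. Without 1 of gun1-101 control replicates 1 and 3 or lincomycin replicates 1 and 3, 5 or 6 IQD genes were called.

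Of 32 serine carboxypeptidase-like (SCPL) genes, 9 fell and 0 rose, where 9.51% of all genes fell and 10.9% rose. SCPL15 measured 6.54, 7.01 and 6.64 in gun1-101 controls and 4.78, 5.21 and 4.95 with lincomycin, while the Col-0 arrays lay between 5.97 and 6.50 in both conditions. It fell by 1.75 in gun1-101 (SE 0.19, adjusted p = 0.000185), and the difference from Col-0 was -1.75 (SE 0.26, adjusted p = 0.00349). Differences between genotypes were called for scpl16 (-1.85, adjusted p = 0.019) and scpl28 (-0.93, adjusted p = 0.00759) too. Without lincomycin replicate 3, 5 SCPL genes were called. Among 22 beta-glucosidase (BGLU) genes 6 fell and 2 rose, BGLU47 (-1.63) and BGLU45 (1.1) being the extremes; without lincomycin replicate 3, 3 fell.

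Transcripts of the plastid genome fell together in gun1-101. All 63 measured genes had lincomycin arrays below the control arrays without overlap (24.2% of all genes did). Of them 59 were called lower, where 9.51% of all genes were. The median of the 63 was -0.72. In Col-0 the median was -0.18 and 4 were called lower. The difference between genotypes was called for 22 of the 63, lower in gun1-101 in each, where 2.95% of all genes were. Many of these calls were unsteady. Of 23 alternatives 13 ended the call for ndhC, 11 those for ndhG, cemA and psbJ, and 2 to 12 those of others. The calls for ndhJ, ndhK, ndhF, petL, psbM and rps14 held under all 23. The exceptions in gun1-101 were atpA (-0.31, adjusted p = 0.062), clpP (-0.30, adjusted p = 0.111), psbA (-0.27, adjusted p = 0.0889) and rpl20 (-0.18, adjusted p = 0.249). The lower count lay between 49 and 62 over 17 alternative settings, with 58 when the array covariate was held and 49 after quantile normalisation.

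ndhJ, a subunit of the NDH complex that returns electrons from ferredoxin to plastoquinone, showed the largest plastid fall. It measured 11.53, 11.54 and 11.40 without and 8.73, 9.09 and 8.86 with lincomycin, a fall of 2.60 (SE 0.16, 6.05-fold, adjusted p = 1.11e-05). All 10 measured plastid ndh genes fell, with a median of -0.96, beside 93.7% of plastid genes and 9.51% of all genes lower. For 6 of them the difference from Col-0 was called, where 6.97% of all genes were. Of 23 alternatives 13 ended that call for ndhC, 11 for ndhG and 2 for ndhH. In Col-0 the median of the 10 was -0.27. For ndhJ the response was 1.76 log2 units lower in gun1-101 than in Col-0 (interaction -1.76, SE 0.23, adjusted p = 0.00144).

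In photosystem II, which splits water, 12 of 13 genes fell with a median of -0.91. With 93.7% of the plastid genes lower, and 9.51% of all genes, that count does not set photosystem II apart from the rest of the plastid genome. psbM, a small subunit of its core, measured 10.51, 10.55 and 10.33 without and 8.24, 8.56 and 8.31 with lincomycin, a fall of 2.10 (SE 0.15, adjusted p = 2.24e-05). psbA, of the D1 protein, moved from 12.06, 12.14 and 12.05 to 11.78, 11.93 and 11.73, and was not called. The small subunits psbT (-1.48), psbN (-1.38), psbJ (-1.29) and psbL (-1.27) lay between the extremes. psbN is listed with photosystem II by its name and is known as an assembly factor.

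The counts of the next complexes also stand beside 93.7% of the plastid genes lower. All 5 photosystem I genes fell, with a median of -0.56. The small subunit psaJ was lowest (-1.65), and psaA (-0.56) and psaB (-0.50), of the reaction centre, lay close together. Under quantile normalisation 2 of the 5 were called. All 6 genes of the cytochrome b6f complex, which links the photosystems, fell, with a median of -0.80. The lowest was petL, which measured 10.78, 11.04 and 10.69 without and 8.56, 9.07 and 8.69 with lincomycin (-2.06, SE 0.18, adjusted p = 7.42e-05). Of 4 ATP synthase genes 3 fell, atpF most (-0.92).

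The 4 genes of the plastid-encoded RNA polymerase, rpoA, rpoB, rpoC1 and rpoC2, which transcribes most photosynthesis genes of the plastid, fell by 0.62 to 0.77. rpoB measured 12.23, 12.34 and 12.23 without and 11.50, 11.84 and 11.61 with lincomycin (-0.62, SE 0.12, adjusted p = 0.00576). Their median in Col-0 was -0.01, and the difference between genotypes was called for rpoB (-0.67, adjusted p = 0.0422) and rpoC2 (-0.76, adjusted p = 0.0307). Of 23 alternatives 12 ended the call for rpoB and 10 that for rpoC2. Of 13 ribosomal protein genes 12 fell, beside 93.7% of the plastid genes, with a median of -0.66. rps14 stood lowest among them: 11.85, 11.92 and 11.91 without and 9.38, 9.78 and 9.89 with lincomycin (-2.21, SE 0.17, adjusted p = 2.53e-05). Of the 8 other plastid genes 7 fell, among them cemA (-1.16), the photosystem I assembly factor ycf4 (-1.14), ccsA (-1.12), accD of fatty acid synthesis (-0.72), rbcL (-0.58) and the intron maturase matK (-0.52).

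**Figure D2:**
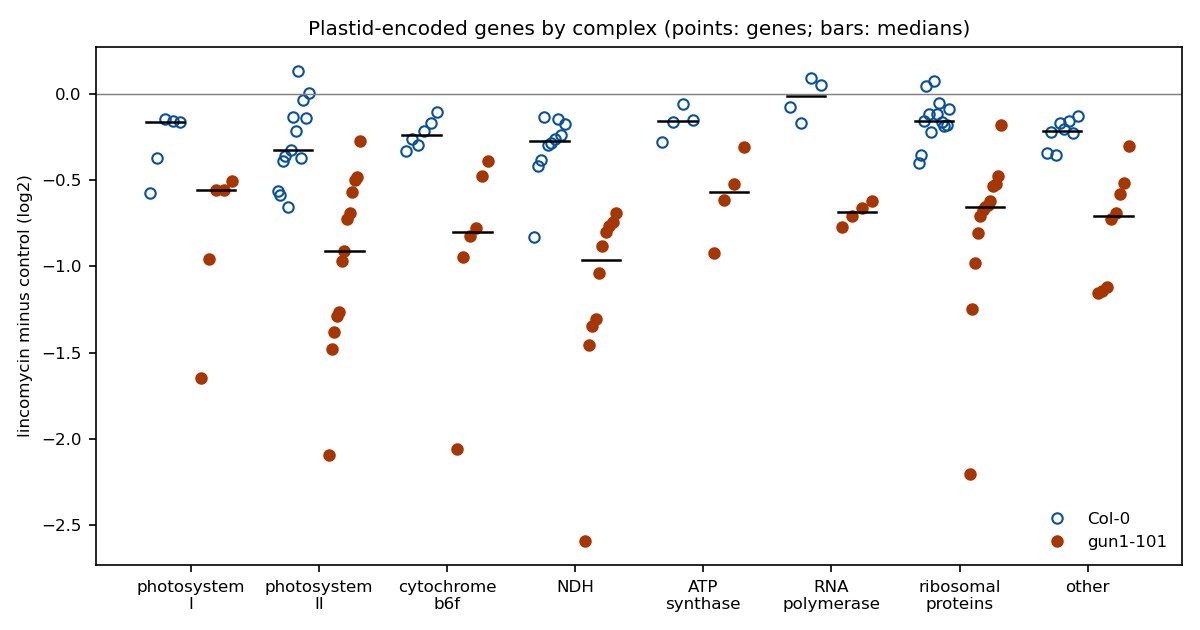
Lincomycin minus control in log2 units for the 63 plastid genes, grouped by complex; open points are Col-0, filled points gun1-101, and bars are medians. In each complex the gun1-101 median lies below the Col-0 median, as with -0.96 and -0.27 for NDH.

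Genes next to each other on the plastid genome fell by unequal amounts. In the run ndhC, ndhK, ndhJ the log2 differences were -0.77, -1.46 and -2.60. In psaA, psaB, rps14 they were -0.56, -0.50 and -2.21. Along petL, petG, psaJ, rpl33 and rps18 they were -2.06, -0.95, -1.65, -0.52 and -0.71. Along psbM, petN, rpoB, rpoC1, rpoC2, rps2 and atpI they were -2.10, -0.39, -0.62, -0.77, -0.66, -0.47 and -0.61. The differences between genes were not tested. The size of the fall moved with the level of the probe set. Across the 63 genes, which share arrays and one genome, Pearson's r between the gun1-101 control mean and the log2 difference was 0.57 and Spearman's rho 0.66, given as a description. The 39 genes with a control mean of at least 12 had a median of -0.64, and the 24 below 12 a median of -1.13. Levels of 12 or more were rare, at 0.302% of all genes, and the highest value on any array was 12.88. Whether the brightest probe sets understate a fall was not tested.

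**Figure D3:**
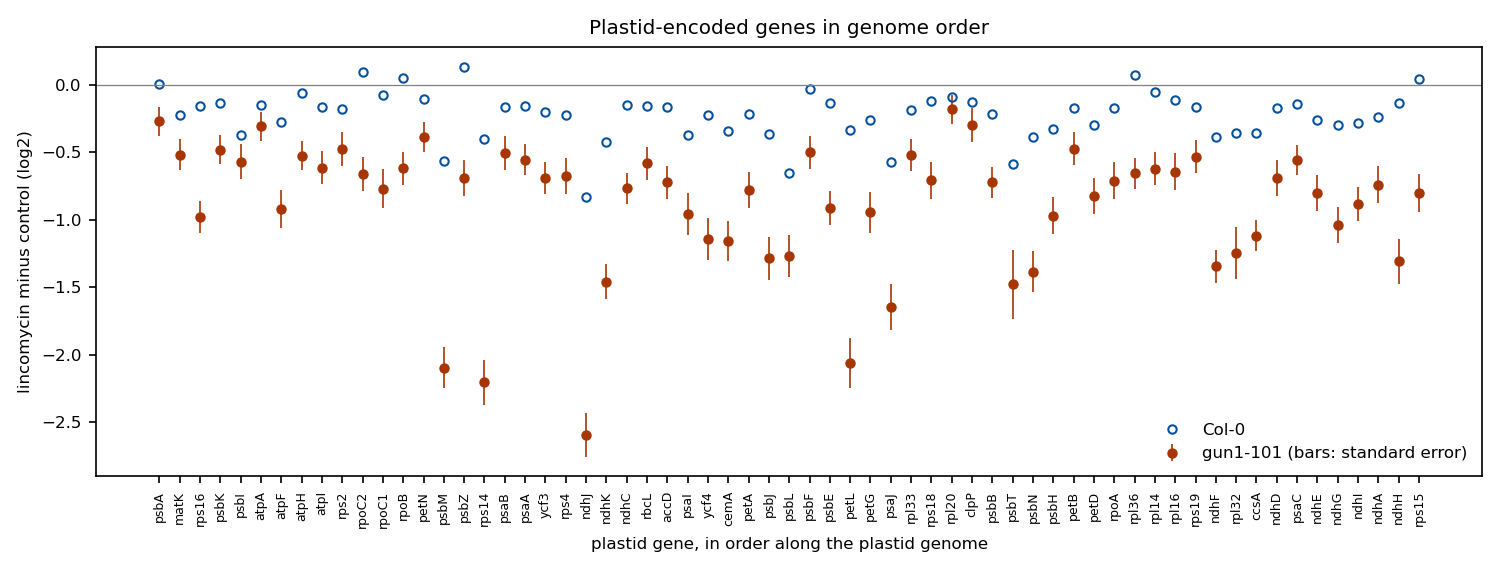
Lincomycin minus control in log2 units for the 63 plastid genes in their order along the plastid genome; filled points with standard errors are gun1-101 and open points Col-0. The gun1-101 points lie below zero throughout, from -0.18 for rpl20 to -2.60 for ndhJ.

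The mitochondrial genome gave a weaker shift. Of its 17 measured genes, 16 had lincomycin arrays below the controls without overlap, where 24.2% of all genes did. The list's median was -0.31. Only 1 was called lower, where 9.51% of all genes were. It was cox2, a subunit of cytochrome oxidase (-0.71, SE 0.20, adjusted p = 0.0308). In Col-0 the median was 0.11. The count ran from 0 with the array covariate to 9 with array weights.

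Nuclear genes of photosynthesis fell less in gun1-101 on lincomycin than in Col-0. Of 52 listed loci for light harvesting, photosystems and ATP synthase, 9 were measured. Of these, 2 fell and 0 rose, where 9.51% of all genes fell. The list's median was -0.23, or -0.45 with the array covariate. In Col-0 all 9 fell, with a median of -1.75, and the difference between genotypes was called for all 9. The mean log2 level of the list was 10.46 to 10.47 in gun1-101 control arrays and 10.07 to 10.24 with lincomycin, against 8.18 to 8.80 in the Col-0 arrays with lincomycin. LHB1B2, of the major light-harvesting complex of photosystem II, measured 11.31, 11.28 and 11.10 without and 10.37, 10.95 and 10.86 with lincomycin in gun1-101. In Col-0 the lincomycin arrays were at 7.02, 6.97 and 8.02. The gun1-101 groups did not overlap, but the log2 difference of -0.50 was not called (SE 0.25, adjusted p = 0.173), and the difference between genotypes was 3.86 (SE 0.35, adjusted p = 0.000149). The members that did fall in gun1-101 were LHCB4.3, a minor antenna protein (-0.73, SE 0.14, adjusted p = 0.00424), and ATPC1, the gamma subunit of the plastid ATP synthase (-0.50, SE 0.12, adjusted p = 0.0149). The count called lower was 1 without gun1-101 control replicate 2 or lincomycin replicate 1, and 4 without both Col-0 arrays that stood apart. NdhU, a nuclear subunit of the NDH complex named here after its values were seen, measured 9.76, 9.81 and 9.77 without and 9.87, 9.71 and 9.93 with lincomycin in gun1-101. Its log2 difference was 0.06 beside -4.16 in Col-0 (interaction 4.22, SE 0.28, adjusted p = 1.08e-05), while the plastid-encoded ndh genes of the same complex fell in gun1-101.

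Carbon fixation and photorespiration fell partly. Of 37 loci 10 were measured, and 5 fell and 0 rose in gun1-101, where 9.51% of all genes fell. The list's median was -0.41 in gun1-101 and -1.30 in Col-0. PRK, the phosphoribulokinase of the Calvin cycle, measured 9.72, 9.60 and 9.93 without and 8.78, 8.63 and 8.53 with lincomycin. Its fall of 1.1 (SE 0.22, adjusted p = 0.00594) was smaller than the 2.82 by which Col-0 fell (interaction 1.71, SE 0.31, adjusted p = 0.0105). AT1G56190 fell by 1.02, SBPASE, the sedoheptulose-bisphosphatase, by 0.72 and LrgB, a plastid transporter of photorespiration, by 0.58. For 7 of the 10 genes the difference between genotypes was called, higher in gun1-101 in each.

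Tetrapyrrole synthesis makes chlorophyll and haem. Of 32 loci 9 were measured. In gun1-101 3 of them fell and 1 rose, where 9.51% of all genes fell and 10.9% rose. PORB, a light-dependent protochlorophyllide oxidoreductase, went from 10.88, 11.01 and 10.85 to 10.02, 9.74 and 10.09, a fall of 0.96 (SE 0.15, adjusted p = 0.00136). Col-0 fell by 3.40, and the difference was called (2.44, SE 0.21, adjusted p = 8.97e-05). HEMA2, of the glutamyl-tRNA reductases that open the pathway, rose from 7.19, 7.00 and 7.46 to 8.15, 8.46 and 8.33 (1.09, SE 0.17, adjusted p = 0.00148). Its log2 difference in Col-0 was 0.11, and the difference between genotypes was called (0.99, SE 0.24, adjusted p = 0.034), though not under 11 of 23 alternatives. The other falls were of hemb2 (-1.0) and GSA1 (-0.52). The lower count was 1 without gun1-101 control replicate 1, lincomycin replicate 1 or lincomycin replicate 2.

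**Figure D4:**
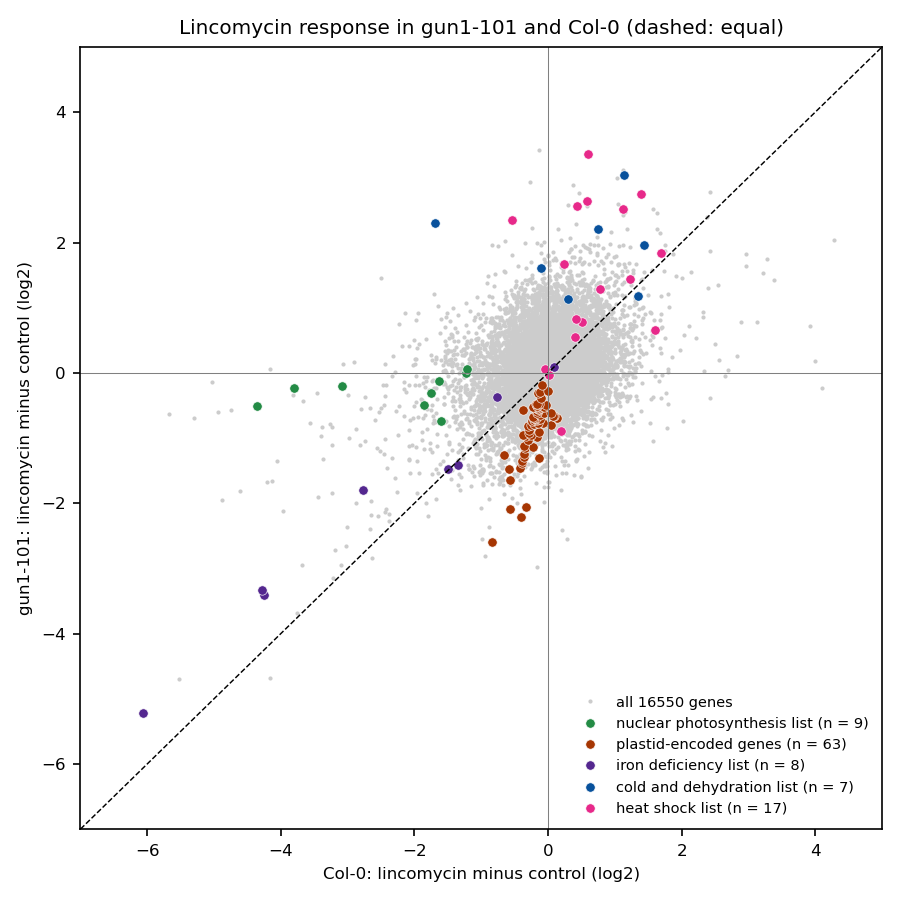
Lincomycin minus control in log2 units in gun1-101 (vertical axis) against Col-0 (horizontal axis) for 16550 genes; coloured points are members of 5 lists and the dashed line marks equal responses. Nuclear photosynthesis genes reach -4.36 on the Col-0 axis and no lower than -0.73 in gun1-101, while iron deficiency genes lie near the dashed line.

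Genes of cold and dehydration rose in gun1-101. Such genes encode small hydrophilic proteins that protect membranes and proteins when cells lose water. Of 27 loci 7 were measured and all 7 rose, against 10.9% of all genes, with a median of 1.96. In Col-0 the median was 0.74, and 3 of the 7 rose (AT3G02480 1.43, KIN1 1.35 and KIN2 1.13) and COR15B fell. KIN2, a cold-responsive gene, measured 6.67, 6.23 and 5.99 without and 9.31, 9.15 and 9.52 with lincomycin, a rise of 3.03 (SE 0.32, 8.17-fold, adjusted p = 0.000184). The dehydrin LTI30 went from 8.03, 7.91 and 7.55 to 10.36, 9.67 and 10.08 (2.20, SE 0.29, adjusted p = 0.000694). COR15B, of stromal proteins that guard membranes in freezing, went from 6.83, 6.62 and 5.70 to 8.91, 8.31 and 8.84 (2.30, SE 0.35, adjusted p = 0.0013). No pair of groups overlapped. In Col-0 COR15B went the other way: 6.41, 5.10 and 5.65 without and 4.15, 3.66 and 4.26 with lincomycin (-1.70), so that the difference between genotypes was 4.00 (SE 0.49, adjusted p = 0.00107). COR15A, its neighbour, rose by 1.60 in gun1-101 beside -0.11 in Col-0 (interaction 1.71, adjusted p = 0.0296; lost under 7 of 23 alternatives). The others were AT3G02480 (1.96), KIN1 (1.18) and the dehydrin COR47 (1.14). The count of 7 held under all 17 alternative settings. Neighbouring near-identical genes such as KIN1 and KIN2 or COR15A and COR15B may share probe signal, which was not tested.

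Further named rises lay outside these lists, apart from UPB1, which is listed as a root marker. COR27, a cold regulated gene, rose by 2.21 and LEA18, of the late embryogenesis abundant proteins, by 1.98. SIS, a salt induced serine rich gene, rose by 1.95 and ZCF37 by 2.07. UPB1, a transcription factor known from the root tip for its control of peroxidases, measured 6.68, 6.57 and 6.22 without and 9.23, 9.29 and 8.62 with lincomycin (2.56, SE 0.33, adjusted p = 0.000576). Its log2 difference in Col-0 was 0.58 and the difference between genotypes was called (1.98, SE 0.47, adjusted p = 0.0307), though not under 11 of 23 alternatives. The largest called rise belonged to ZAT7, a zinc finger transcription factor, at 3.43, with an SE of 1.05 and an adjusted p of 0.0389. Its controls spread from 3.12 and 3.45 to 6.16 and its lincomycin arrays from 6.62 to 9.25, and the call was lost under 7 of 18 alternatives. AT3G46080 rose by 2.77 (SE 0.52, adjusted p = 0.0044). AT2G27535 had the lowest adjusted p of the rises (1.52e-05): 4.04, 4.58 and 3.83 without and 7.57, 7.15 and 7.06 with lincomycin, a rise of 3.11 (SE 0.21). AT4G37220 (3.0), AT4G12490 (2.93), AT4G08555 (2.88) and AT1G78720 (2.52) were others.

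**Figure D5:**
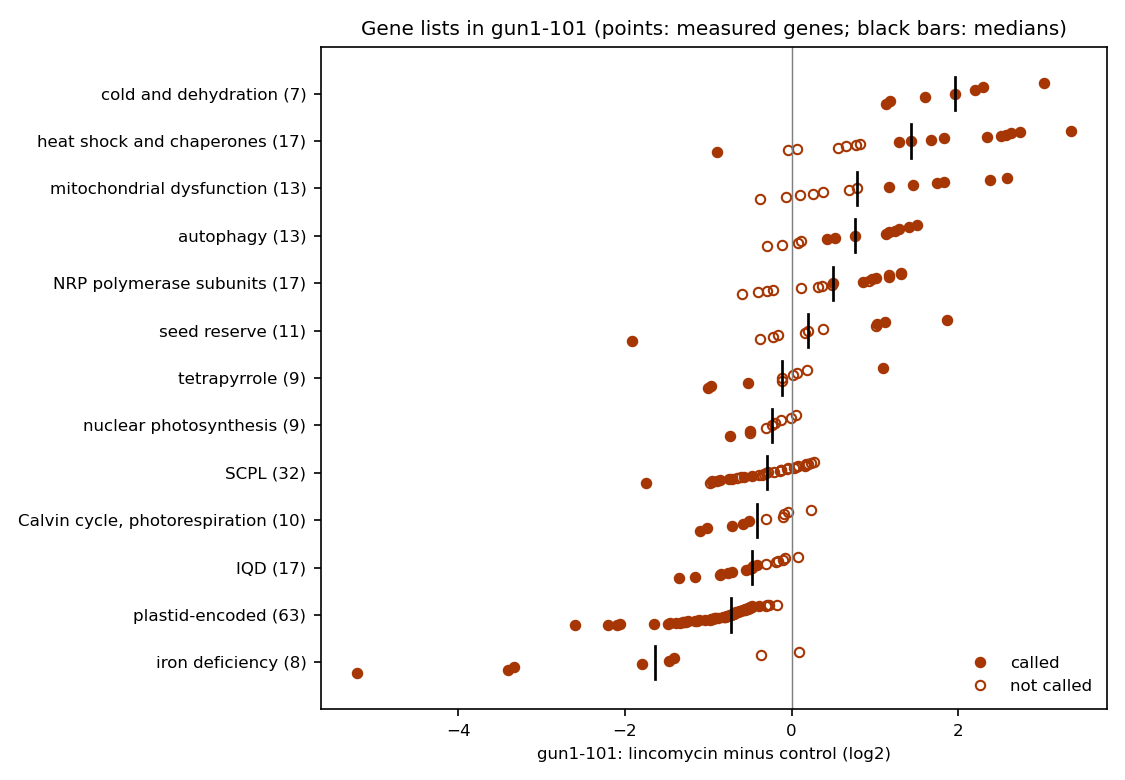
Lincomycin minus control in gun1-101, in log2 units, for the measured genes of 13 lists; filled points are called genes, open points are not called, and black bars are medians. The cold and dehydration list has its median at 1.96 and the iron deficiency list at -1.63.

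Many heat shock genes rose in gun1-101. Small heat shock proteins are chaperones that hold unfolded proteins. Of 46 loci for these and related chaperones 17 were measured; 10 rose, 1 fell and 6 were not called, where 10.9% of all genes rose, with a median of 1.43 beside 0.51 in Col-0. AT1G53540 measured 5.56, 6.22 and 5.90 without and 8.35, 10.05 and 9.35 with lincomycin, a rise of 3.36 (SE 0.34, 10.2-fold, adjusted p = 0.000165). AT5G37670 rose by 2.74, AT1G52560 by 2.64, AT1G07400 by 2.57 and AT1G54050 by 2.34. ATHSP22.0, a small heat shock gene, went from 3.45, 3.84 and 3.31 to 5.34, 6.52 and 6.27 (2.51, SE 0.26, adjusted p = 0.000185). For AT1G53540, AT1G07400 and AT1G54050 lincomycin replicate 1 was the lowest of the treated arrays, and still above every control. The difference between genotypes was called for AT1G53540 (2.76, adjusted p = 0.00842), AT1G52560 (2.06, adjusted p = 0.041), ATHSP22.0 (1.38, adjusted p = 0.0471) and AT1G54050 (2.88, adjusted p = 0.0388). Of 23 alternatives 10 ended that call for AT1G52560, 11 for AT1G54050 and 13 for ATHSP22.0. The gene that fell was Hsp70-2 (-0.90, SE 0.24, adjusted p = 0.0202), named here after its value was seen. It measured 8.41, 8.22 and 8.29 without and 6.80, 7.99 and 7.43 with lincomycin, and 0 genes of the list were called lower without control replicate 1 or 3 or without lincomycin replicate 1 or 3.

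Genes that answer to disturbed mitochondria rose in part. Of 26 loci 13 were measured; 6 rose and 0 fell, beside 10.9% of all genes higher, with a median of 0.78 beside 0.34 in Col-0. AT2G41730 rose by 2.58 (SE 0.57, adjusted p = 0.00926). AT2G04070 measured 3.41, 3.56 and 2.98 without and 5.81, 5.70 and 5.56 with lincomycin, a rise of 2.38 (SE 0.17, adjusted p = 2.29e-05). In Col-0 its log2 difference was -0.51, and the difference between genotypes was called (2.88, SE 0.25, adjusted p = 8.97e-05). AT5G51440, which is also in the heat shock list, rose by 1.83 and AT2G04050 by 1.75. Of 11 genes of mitochondrial dehydrogenases 2 rose, SDH2-3 (1.54) and SDH1-2 (1.14), both of succinate dehydrogenase, and 0 fell. With 10.9% of all genes higher and a list median of -0.06, that count says nothing of the list as a whole.

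Most measured autophagy genes rose, those of ATG8 by the largest amounts. ATG8 is a small ubiquitin-like protein that is attached to the membrane of the autophagosome, and ATG3 is an enzyme of that attachment. Of 20 loci 13 were measured; 9 rose, 0 fell and 4 were not called, with a median of 0.76 and 10.9% of all genes higher. The 4 were ATG8F (0.12), AT5G66930 (0.08), AT3G53930 (-0.11) and AT3G61960 (-0.29). ATG8B measured 7.30, 7.37 and 7.26 without and 8.91, 8.84 and 8.69 with lincomycin (1.51, SE 0.21, adjusted p = 0.000773). ATG8H went from 8.28, 8.37 and 8.21 to 9.75, 9.79 and 9.55 (1.41, SE 0.19, adjusted p = 0.000719). The groups lay more than 1 log2 unit apart in both. ATG8G rose by 1.29, APG8A (also ATG8A) by 1.25, ATG8E by 1.16 and ATG8D by 1.13, while ATG3 rose by 0.42. ATG8H was the member with a called difference between genotypes (1.07, SE 0.27, adjusted p = 0.0362), and that call was lost under 12 of 23 alternatives. The list's median in Col-0 was 0.28. With the array covariate the median was 0.53 with 7 calls. Without 1 of control replicates 1 and 2 or lincomycin replicates 1 and 3, 4 or 5 members were called.

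Subunits of the nuclear RNA polymerases (NRP genes) rose in part: 7 of 17 rose and 0 fell, where 10.9% of all genes rose. The largest were NRPE7 and NRPD7 (1.31 each), of the plant polymerases of RNA silencing, and NRPB7 (1.17), of the polymerase that makes messenger RNA. NRPB7 went from 7.85, 7.85 and 8.20 to 9.36, 8.84 and 9.20, with a called difference from Col-0 (1.65, SE 0.42, adjusted p = 0.0386) that was lost under 11 of 23 alternatives. Without 1 of control replicates 1 and 2 or lincomycin replicates 1 and 3, 4 were called. Without both Col-0 arrays that stood apart 3 were called lower.

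Families of sugar transport and conjugation held some rises, beside 10.9% of all genes higher and 9.51% lower. SWEET genes encode sugar carriers. Of 15 genes with symbols that begin so, 5 rose and 0 fell. The match of symbols also took in SWEETIE, which is not of that family and was not called. SWEET4 measured 5.11, 4.87 and 4.33 without and 7.33, 6.44 and 6.96 with lincomycin (2.14, SE 0.29, adjusted p = 0.000719). SWEET1 rose by 1.37, beside -0.32 in Col-0 (interaction 1.69, SE 0.43, adjusted p = 0.0384), a difference that lost its call under 12 of 23 alternatives. Of 51 UGT genes, which attach sugars to small molecules, 12 rose and 2 fell. UGT73C1 led: 7.47, 7.38 and 7.45 without and 9.22, 8.70 and 8.98 with lincomycin (1.53, SE 0.19, adjusted p = 0.000468), beside -0.08 in Col-0 (interaction 1.62, SE 0.27, adjusted p = 0.00621). Without control replicate 3, 6 UGT genes were called higher. Of 14 glutathione S-transferase (GST) genes 3 rose, GSTU16 (1.13), GSTF3 (1.01) and GSTU22 (0.94), and 1 fell, GSTU20 (-1.54), shares not far from those of all genes.

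Marker lists of tissues and of expression references were read in the same way, beside 10.9% of all genes higher and 9.51% lower. Of 23 root loci 9 were measured: UPB1, AT4G11290 (0.76) and AT2G37130 (0.53) rose and 0 fell, with a median of 0.23, or -0.07 with the array covariate. The mean log2 level of the root list was 7.92 to 7.99 in gun1-101 controls and 8.23 to 8.37 with lincomycin, without overlap. The part of root tissue in the rises was not tested. Of 25 loci of seed reserves 11 were measured; 3 rose, PAP85, a storage protein gene (1.86), AT3G01570 (1.13) and ICL, the isocitrate lyase of fat use (1.03), and AT4G36700 fell (-1.91). The list's mean level was 5.97 to 6.35 without and 6.19 to 6.61 with lincomycin, so the groups overlapped. Of 12 stomatal loci 3 were measured, and MUTE, of stomatal precursors, rose by 0.78; 0 were called without control replicate 2 or 3 or without lincomycin replicate 1 or 3. Their mean level was 7.51 to 7.75 without and 7.47 to 8.10 with lincomycin. None of 9 flower loci was measured. Of 9 measured genes used as references for expression 2 rose, AT5G12240 (0.84) and AT4G26410 (0.53), and 0 fell, with a median of -0.03. Without 1 gun1-101 array 0 or 1 of them was called.

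The responses of the genotypes come from different arrays, and they overlapped in part. Of the 1810 genes higher in gun1-101, 366 were higher in Col-0 too. That is 20.2% of the gun1-101 list, where 7.15% of all genes were higher in Col-0. It is 30.9% of the Col-0 list, where 10.9% of all genes were higher in gun1-101. Of the 1574 lower genes 397 were lower in Col-0, or 25.2% and 33.4%. Of all genes 7.19% were lower in Col-0 and 9.51% in gun1-101. Opposite calls were few: 42 genes rose in gun1-101 and fell in Col-0, and 20 did the reverse. Over all 1810 genes higher in gun1-101 the median was 0.80 in gun1-101 and 0.23 in Col-0, and over the 1574 lower genes -0.72 and -0.17; the gun1-101 medians follow from the choice of genes. The test of the difference itself called 1153 genes, 6.97% of those tested, 664 higher in gun1-101 (4.01%) and 489 lower (2.95%). That count moved with single arrays. It was 3876 with Col-0 control replicate 1 left out and 2986 with Col-0 lincomycin replicate 3 left out, the arrays that stood apart. Leaving out any other array gave between 379 and 704. Several gun1-101 calls named here were lost often. Out of 18 alternatives, MSRB4 lost its call under 11, AT4G11290 under 10, AT5G12240 under 9, and LrgB and TRM82 under 8. The calls of APG8A, ZAT7, bZIP58, AT1G03495 and petN were lost under 7. Those of ATG8G, cox2, MUTE, scpl16 and AT1G21500 were lost under 6, and those of GSTU22 and MSRB6 under 5.

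Among genes called in gun1-101 and in the difference, AT1G21500 stood highest. It measured 10.13, 10.14 and 10.19 in gun1-101 controls and 9.38, 9.67 and 9.62 with lincomycin, a fall of 0.60, while Col-0 fell by 4.94 (interaction 4.35, SE 0.25, adjusted p = 5.74e-06). AT2G29370 rose from 6.20, 6.05 and 6.52 to 7.62, 7.62 and 7.89 in gun1-101 (1.45) and fell by 2.49 in Col-0 (interaction 3.95, SE 0.22, adjusted p = 5.74e-06). AT4G27360 rose by 0.92 in gun1-101 beside a Col-0 fall of 1.94, and AT3G22100 by 1.96 beside a fall of 0.85. AT1G13650 and AT1G10657 fell in both, less in gun1-101 (-1.95 and -1.81) than in Col-0 (-4.87 and -4.62). These genes have no symbol in the tables used, and no role is given to them here.

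At the other end were genes that rose less or fell more in gun1-101. AT4G05380 rose by 0.72 in gun1-101 and by 3.93 in Col-0 (interaction -3.21, SE 0.27, adjusted p = 8.21e-05), and AT3G54520 by 0.79 and 3.12. AT4G36230 measured 6.80, 7.25 and 6.45 in gun1-101 controls and 3.87, 3.76 and 3.92 with lincomycin, a fall of 2.98, while in Col-0 its log2 difference was -0.17 (interaction -2.81, SE 0.41, adjusted p = 0.00327). AT3G04330 (-2.55 beside 0.28) and AT2G39040 (-2.41 beside 0.20) showed the same pattern of a deep gun1-101 fall. AT3G20362, which was bright at 11.26, 11.27 and 10.79 without lincomycin, measured 8.12, 8.44 and 8.31 with lincomycin (-2.82, SE 0.20, adjusted p = 2.24e-05), beside -0.95 in Col-0. AT5G21100 fell by 1.74 with a small error (SE 0.11, adjusted p = 1.34e-05).

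Some changed genes lay side by side. Of 560 nuclear genes called at least 2-fold higher, 35 (6.25%) had the next tested gene on the chromosome called likewise, where 3.43% of the 16348 nuclear genes were. Of 361 lower genes 12 (3.32%) did, where 2.21% were. The longest run, picked after the values were seen, held 6 tested genes from AT4G15660 to AT4G15710, with rises of 2.16, 1.31, 1.72, 1.69, 1.68 and 1.03. A run of 4 from AT1G52000 to AT1G52070 fell, by -1.86, -1.03, -1.67 and -1.12. Probe sets of neighbouring genes of like sequence can share signal, and this was not tested.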

How the data were processed

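Expression in whole seedlings was measured on 12 Affymetrix arrays, whose design the sources used here do not name. The deposited values are log2 levels computed by the authors with RMA (Affymetrix Expression Console 1.3), as recorded per the submitters' processing notes. RMA corrects background, gives the arrays 1 common distribution and summarises probes, so it can hide a shift of most transcripts. The number of arrays limits the precision.

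Of 38408 probe sets, 16722 had 1 gene in the platform annotation, 759 several and 20927 none; the last are unnamed here, not without a gene. For 146 genes with several probe sets the highest mean was taken, leaving 16550 genes. RefSeq genes (assembly TAIR10.1) gave names and gene order for 16411.

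A mean for each of 4 groups was fitted with limma 3.58.1 (lmFit, eBayes) in R 4.3.3, two-sided, with Benjamini-Hochberg adjustment; residual degrees of freedom were 8, prior SD 0.204 and prior degrees of freedom 3.89. The interaction is the gun1-101 log2 difference minus that of Col-0; errors are standard errors (SE). The fit was tested on simulated data. Labels call the arrays biological replicates without saying how they were raised, so p-values measure the spread between these samples.

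Members, gene lists and tests were chosen with earlier results of these data known. Named genes were the 15 highest and 15 lowest called differences without overlap between groups, the next 8 each way with a symbol, the 10 lowest adjusted p-values, the 10 highest and 10 lowest interactions called in both tests, and up to 6 members of each list (all of plastid lists and of lists up to 8). Lists by symbol replaced lists by product, which the tables lack. Alternatives were the arrays in the fit, a replicate block, array weights, scaling, the probe sets used, a filter on dim genes, the variance model, an array covariate, a 2-fold null and each array left out. Sequences were not used here. Results of 2 gene families are not reported here.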

Additional observations from a re-analysis of the deposited data

Results flagged for a closer look

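For 1153 genes the response to lincomycin differed between gun1-101 and Col-0 by limma's test of the interaction. The 35 listed here are those chosen by size of the gun1-101 difference, its adjusted p or the size of the interaction; values of other genes stand beside their lists in the report. The gun1-101 response was the higher by the following log2 amounts: 4.35 for AT1G21500, 4.00 for COR15B, 3.95 for AT2G29370, 2.93 for AT1G13650, 2.92 for AT5G55570, 2.88 for AT2G04070 and for AT1G54050, and 2.86 for AT4G27360. It was higher by 2.81 for AT1G10657, 2.80 for AT3G22100, 2.76 for AT1G53540, 2.51 for AT4G08555, 2.06 for AT1G52560, 1.99 for AT2G27535, 1.98 for UPB1, 1.90 for KIN2, 1.54 for GH3.9, 1.38 for ATHSP22.0 and 1.36 for LEA18. The gun1-101 response was the lower in the rest, with interactions of -1.53 for psbM, -1.73 for petL, -1.75 for SCPL15, -1.76 for ndhJ, -1.80 for rps14 and -1.87 for AT3G20362. Further values were -2.07 for AT3G45700 and for AT2G04680, -2.08 for AT3G19620, -2.10 for AT4G14980, -2.25 for AT1G17960, -2.34 for AT3G54520, -2.62 for AT2G39040, -2.81 for AT4G36230, -2.83 for AT3G04330 and -3.21 for AT4G05380. Of the 63 plastid genes, psbM, petL, ndhJ and rps14 are the 4 in this set. Out of 23 alternatives the call was lost under 13 for ATHSP22.0, 12 for AT4G08555, and 11 for LEA18, UPB1 and AT1G54050. It was lost under 10 for KIN2 and AT1G52560 and under 9 for AT4G14980.

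Probe sets without a listed gene held a response too. In a fit over every probe set, 2902 of the 20927 were called in gun1-101, 1111 higher and 1791 lower. Of the 7083 that precede the first probe set with a listed gene, 57 were higher and 537 lower, with a median of -0.35. Of the 13844 that follow it, 1054 were higher and 1254 lower, with a median of -0.06. The sources used here do not say what these probe sets measure.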

How the results depend on the processing

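Of the 3384 genes called in gun1-101 (1810 higher, 1574 lower; 566 and 379 at least 2-fold), the count was 5682 with array weights (2946 and 2736), 5141 without both Col-0 arrays that stood apart (2732 and 2409), 4589 with the gun1-101 arrays alone and 2814 with the array covariate (364 at least 2-fold higher). Every probe set together gave 5789 calls (3153 lower; 942 and 1243 at least 2-fold), out of more features. Tested against 2-fold, 30 were called (8 and 22). Shifting arrays to the same median gave 1513 higher and 1905 lower, and quantile normalisation 1540 and 1593. Without each gun1-101 array in turn, 1964 to 2357 genes were called (990 to 1322 higher, 974 to 1092 lower), and at least 2-fold 427 to 579 higher and 353 to 395 lower. The replicate block gave 3450 calls and 1368 for the difference between genotypes. The labels do not say whether arrays of the same number belong together, and the main fit did not pair them. Deviations from group means correlated above 0.1 in 1 of 3 gun1-101 pairs of the same number and 7 of 18 such pairs in all. Between Col-0 control and lincomycin, r was 0.44, -0.30 and 0.39 for replicates 1, 2 and 3. Of the 3 gun1-101 arrays of a group, 1 correlated best with its own number in the other group. The difference between genotypes was called for 1153 genes, 664 higher and 489 lower. With array weights the count was 5536 (2669 and 2867), and without both Col-0 arrays 5378 (2645 and 2733). It was 527 with the array covariate (345 and 182) and 33 against 2-fold (28 and 5). Without each array in turn the count for this difference was 379 to 3876 (251 to 1996 higher, 128 to 1880 lower). Of the alternative values of named genes in gun1-101, 5823 kept their side of the threshold, 164 gained and 329 lost a call, and 0 reversed; of their interactions 1728 kept it, 410 lost it and 0 reversed. The causes were not tested. Dim probe sets limit what can be called: 1.11% of the dimmest of 4 groups of genes were higher.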

Other observations

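Families not described above mostly had few called members in gun1-101, where 10.9% of all genes rose and 9.51% fell. Of 17 bZIP transcription factor genes 4 rose and BZIP34 fell (-0.94); among the rises were bZIP58 (0.93), bZIP44 (0.92) and BZIP60 (0.80), a factor of the unfolded protein response. Of 28 CYP71B-type and other CYP genes in the list 3 rose and 2 fell. CYP71B26 rose most (1.59), beside -0.13 in Col-0 (interaction 1.72, SE 0.45, adjusted p = 0.0416), a difference that lost its call under 11 of 23 alternatives. Of 73 defensin-like LCR and PDF genes 2 rose and 3 fell, PDF1.4 (1.65) being the largest rise. Of 18 RALFL peptide genes 1 rose, RALFL32 (1.42), and 2 fell. Of 15 genes with TRM symbols 6 fell and 0 rose, TRM22 most (-1.49); the symbols span more than 1 family, since TRM82 is of another, and 2 to 4 were called when 1 gun1-101 array was left out. Of 10 beta-tubulin and histone genes of the TUB and HTB list 3 fell, TUB1, TUB7 (-1.22) and TUB5 (-0.70). Of 6 MSRB genes, methionine sulfoxide reductases, 2 rose, MSRB6 (0.81) and MSRB4 (0.56), but MSRB4 lost its call under 11 of 18 alternatives and the count ran from 0 to 4. Single falls were called in the ALDH (1 of 8), CHR (1 of 8), WRKY (1 of 7) and OTP and CRR lists (1 of 11), with 0 rises, a single rise in the IAA list (1 of 8), and 1 rise and 1 fall among 12 TET genes. Of 7 measured anthocyanin genes DFR (-0.51) and AT1G03495 (-0.58) fell, and 0 were called without control replicate 1 or 2 or without lincomycin replicate 1 or 2.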
